A study of Sus scrofa with 48 samples.

Results

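The regulators described here are 8 genes through which carbohydrate, insulin and related signals are known to reach the fat-making enzymes of adipose tissue: *SREBF1*, *MLXIPL*, *MLX*, *USF1*, *USF2*, *OGT*, *THRSP* and *MID1IP1*. Members were chosen by gene symbol, and a probe was used if the scanner software flagged it as well above background on 9 or more of 12 arrays in some group. In all, 21 probes for 7 of the 8 genes met this rule, out of 44356 probes kept on the array, and no probe found for these genes was lost to it. *THRSP* is not analysed here. Subcutaneous adipose tissue (SCAT) came from 48 pigs aged 132 days, with 1 array per pig and 12 pigs in each of 4 groups. Per the study's methods the animals were Large White, from 2 lines bred apart for residual feed intake (RFI), where a low RFI marks the more efficient line. The HF diet was rich in fat and fiber, with rapeseed and soybean oils and wheat straw, and the LF diet was low in both and rich in starch. Each diet was fed to both lines, and groups are named by diet and line (HF low RFI and so on). Fat, fiber and starch changed together between the diets, so that their parts cannot be told apart.

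SREBP-1, the product of *SREBF1*, is a membrane-bound transcription factor that is cut free and enters the nucleus, and insulin raises its activity. ChREBP, the product of *MLXIPL*, responds to glucose metabolites and binds DNA as a pair with MLX. USF1 and USF2 bind the same kind of E-box element as a pair and take part in the insulin response of the fatty acid synthase gene. OGT, the O-GlcNAc transferase, attaches a sugar made from glucose to proteins. MID1IP1 and THRSP are small related proteins that act on acetyl-CoA carboxylase, the enzyme of the first committed step of fatty acid synthesis.

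The probes are 60-base sequences, shown here because several share bases and because probes of 1 gene gave different readings. All are given 5′ to 3′ as the scanner files hold them. The 4 *SREBF1* probes ranged from 40.0% to 81.7% in G and C. One is named in the files by a RefSeq record only and is called the RefSeq probe:
SREBF1 A_72_P223967: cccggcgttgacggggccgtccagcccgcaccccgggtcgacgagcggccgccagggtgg
SREBF1 A_72_P326973: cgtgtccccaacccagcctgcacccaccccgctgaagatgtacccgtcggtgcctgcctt
SREBF1 RefSeq probe: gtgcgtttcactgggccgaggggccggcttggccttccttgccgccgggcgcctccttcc
SREBF1 O13456: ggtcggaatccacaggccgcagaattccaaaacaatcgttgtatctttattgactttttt

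The single probes of *MLXIPL* and *MID1IP1* and both probes given for *MLX* are shown because no other probe stands for these genes. The *MLX* probes shared no run longer than 6 bases, and with no transcript sequence at hand the strand of the probes, that of O4449 in particular, could not be checked:
MLXIPL A_72_P443011: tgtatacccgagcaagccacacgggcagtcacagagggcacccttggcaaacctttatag
MID1IP1 O13975: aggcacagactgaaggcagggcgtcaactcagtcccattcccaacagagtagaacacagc
MLX A_72_P394458: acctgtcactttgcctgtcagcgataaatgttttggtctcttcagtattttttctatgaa
MLX O4449: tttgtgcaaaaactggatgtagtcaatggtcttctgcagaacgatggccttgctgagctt

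Some probes were not independent readings. *USF1* probes A_72_P672323 and O9582 have 1 sequence, and so have the pair of *USF2* probes and, for *OGT*, A_72_P232207 and the RefSeq probe. *OGT* probes A_72_P365328 and A_72_P506730 share a run of 57 bases, in capitals below. A further probe without a symbol, A_72_P373678, shares 29 bases with each of them, also in capitals:
USF1 A_72_P672323 and O9582: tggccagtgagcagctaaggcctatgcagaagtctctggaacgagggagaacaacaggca
USF2 A_72_P011156 and O12883: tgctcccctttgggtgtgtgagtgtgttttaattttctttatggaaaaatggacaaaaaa
OGT A_72_P365328: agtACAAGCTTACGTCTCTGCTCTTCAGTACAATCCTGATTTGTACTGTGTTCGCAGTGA
OGT A_72_P506730: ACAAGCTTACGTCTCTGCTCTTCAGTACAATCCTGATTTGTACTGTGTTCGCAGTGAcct
no symbol A_72_P373678: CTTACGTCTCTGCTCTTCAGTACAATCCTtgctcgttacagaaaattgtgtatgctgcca
OGT O11764: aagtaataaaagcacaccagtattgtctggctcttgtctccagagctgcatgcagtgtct

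Levels are log2 processed signals, less the array's own median over kept probes, so that 0 is the median kept probe. A level on an array is relative to the other probes of that array, and in a whole tissue fewer cells of a type cannot be told apart from less RNA per cell. Across the arrays 62.2% to 81.9% of all probes were well above background, and the number of arrays limits the precision. Differences were tested with limma over all 44356 probes, and a probe was called when its raw p was under 0.01, its Benjamini-Hochberg adjusted p under 0.08 and its fold change above 1.1. These cut-offs are the ones of the study's methods. Replicates are separate pigs.

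The diet contrast asked which regulators differed between the HF and LF diets, averaged over the lines, and 9 of the 21 probes were called. Called lower under the HF diet were the probes of *MLXIPL* and *MID1IP1*, 1 of 4 *SREBF1* probes, the pair of identical *USF1* probes among 5 and O4449, 1 of 2 *MLX* probes and one of unchecked strand. Called higher were 3 of 6 *OGT* probes. Over the whole array 13.1% of probes were called, with 5.61% higher and 7.44% lower under the HF diet. The median difference of the 21 probes was -0.11 against -0.02 over all probes. With the 75th percentile in place of the median for scaling, the calls over all probes turned from 2489 higher and 3301 lower to 3853 higher and 1884 lower, and those of the 21 probes from 3 higher and 6 lower to 3 higher and 1 lower.

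**Figure D1:**
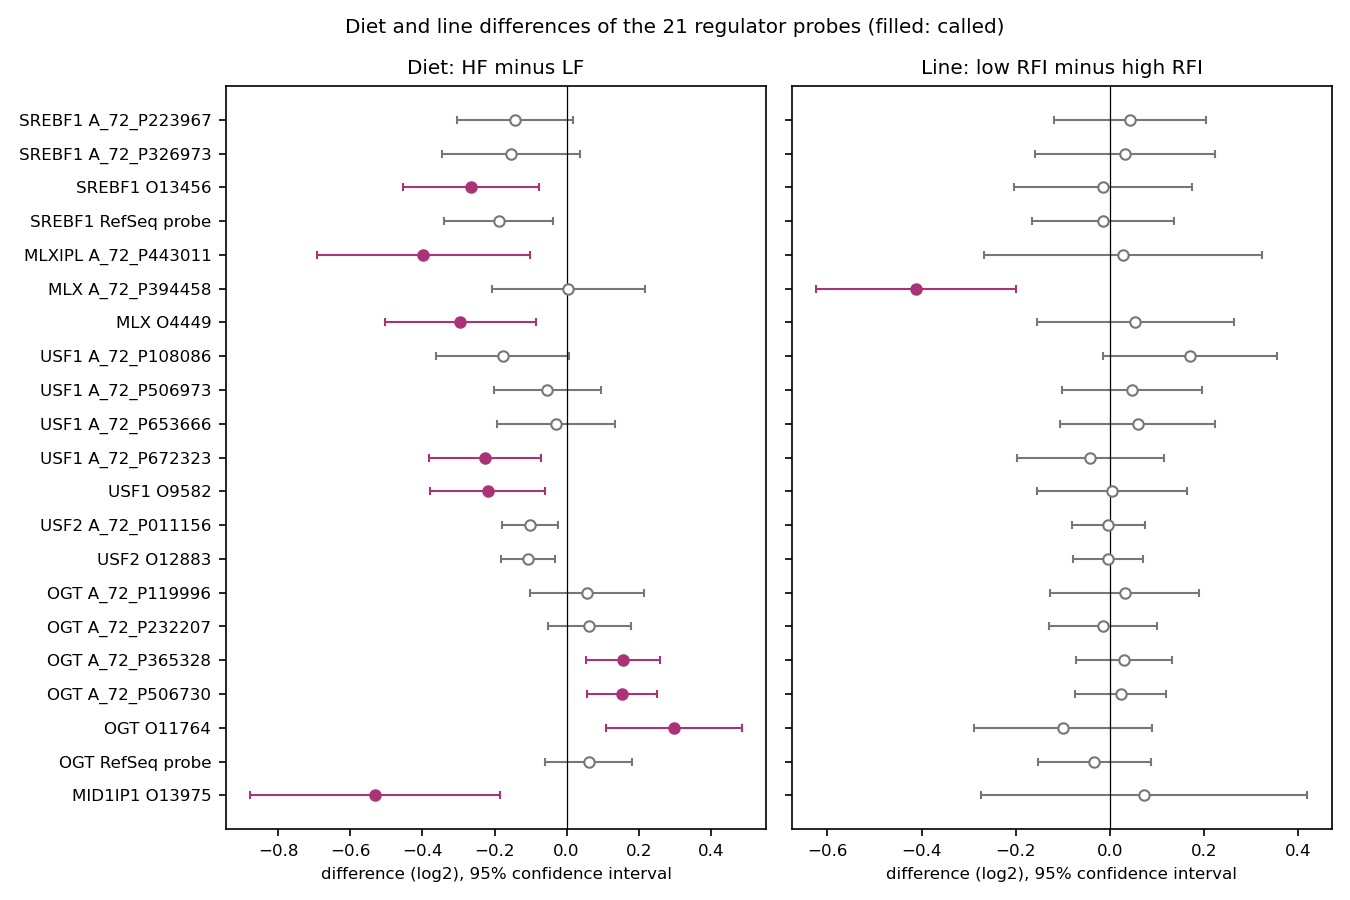
Differences between diets (HF minus LF, left) and lines (low RFI minus high RFI, right) for each of the 21 probes on the log2 scale, with 95% confidence intervals from limma. Filled points passed the cut-offs. The 3 called *OGT* probes lie above 0 and the 6 other called probes lie below 0 for diet, and 1 *MLX* probe lies below 0 for line.

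*SREBF1* was read by 4 probes, all with a lower mean under the HF diet. For O13456, the called one, levels ran from 2.42 to 3.53 with a median of 2.97 in the 24 HF pigs and from 2.46 to 3.66 with a median of 3.17 in the 24 LF pigs. The diets overlapped widely, yet 18 of 24 HF pigs lay below the LF median and 5 LF pigs lay above every HF pig. The level fell by 0.27 under the HF diet (SE 0.09, 95% interval -0.45 to -0.08, limma adjusted p = 0.058). It fell by 0.32 within the first scan date and by 0.21 within the second, 24 arrays each, and neither value alone was called. The call was lost without 1 array, HF high RFI replicate 10 (-0.25, adjusted p = 0.0777, raw p above the cut-off).

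The RefSeq probe of *SREBF1* differed by -0.19 between diets (SE 0.07, adjusted p = 0.0944), with 19 of 24 HF pigs below the LF median of 5.19. A_72_P223967 differed by -0.14 (SE 0.08, adjusted p = 0.257) and A_72_P326973 by -0.16 (SE 0.10, adjusted p = 0.313). None of these 3 probes was called. With slide as a block, A_72_P223967 (adjusted p = 0.0413) and A_72_P326973 (adjusted p = 0.0288) were called at the same differences, and the RefSeq probe was called with array weights (-0.22, adjusted p = 0.0214). The mean of all 4 probes, fitted with the means of all other genes, fell by 0.19 (SE 0.06, adjusted p = 0.0229) and was called, as were 12.2% of the 10404 genes.

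The 4 readings of *SREBF1* fell into 2 pairs across the 48 pigs. O13456 and the RefSeq probe correlated at r = 0.75, and A_72_P223967 and A_72_P326973 at r = 0.92, while the 4 correlations between the pairs lay between -0.09 and 0.05. A_72_P223967 and A_72_P326973 moved with the general level of GC-rich probes of an array, taken as the median of 224 kept probes outside these genes with at least 65% G and C, at r = 0.88 and 0.92. For O13456 the value was 0.06 and for the RefSeq probe, itself 73.3% G and C, it was -0.07. That general level differed between slides, from a mean of -0.66 on slide 3 to -0.14 on slide 6 (8 arrays each), and was -0.45 ± 0.20 under the HF and -0.37 ± 0.21 under the LF diet (SD, n = 24). With it as a covariate, a fit chosen after seeing the data, the 2 probes that follow it differed between diets by -0.05 and -0.04, while O13456 fell by 0.27 (adjusted p = 0.0478, called) and the RefSeq probe differed by -0.20 (adjusted p = 0.054, not called).

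**Figure D2:**
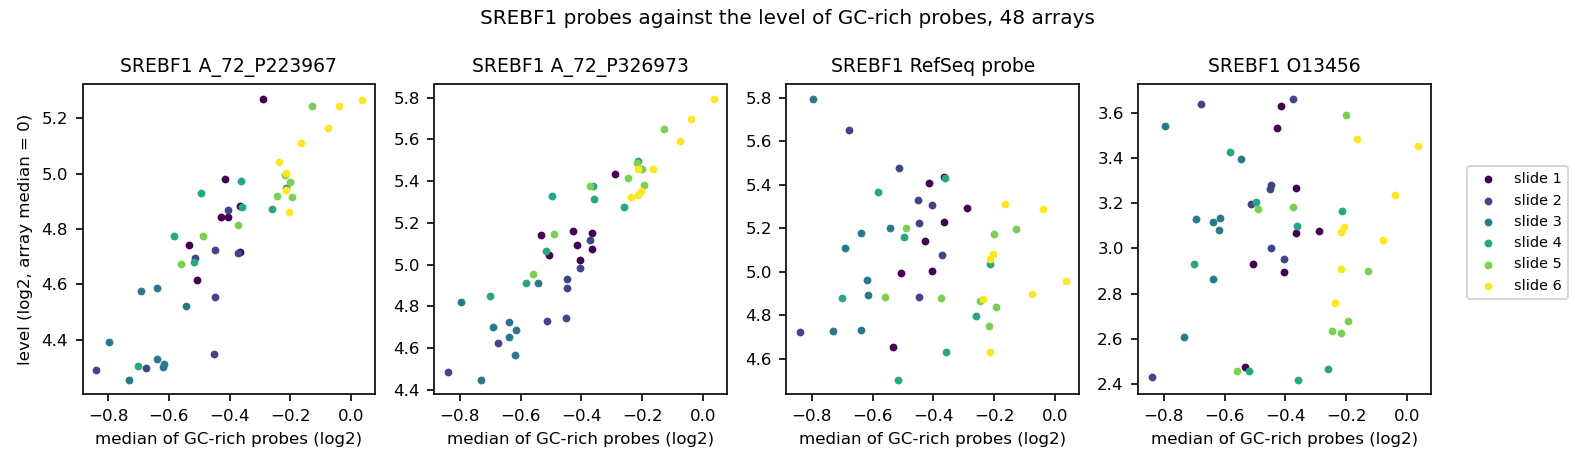
Level of each *SREBF1* probe (y axis, log2) against the median level of the GC-rich probes of the same array (x axis, log2), for 48 arrays coloured by slide. The first 2 probes rise along it (r = 0.88 and 0.92), and the RefSeq probe and O13456 do not (r = -0.07 and 0.06).

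*MLXIPL* passed the cut-offs as lower under the HF diet with median scaling, but not under most alternative settings. Levels of its probe ran from 0.94 to 2.62 with a median of 1.71 in HF pigs, and from 0.69 to 3.28 with a median of 2.15 in LF pigs. The lowest pig of all was an LF pig, but 20 of 24 HF pigs lay below the LF median. The level fell by 0.40 (SE 0.15, a 1.32-fold difference, limma adjusted p = 0.0701). By group the mean was 2.12 ± 0.35 in LF low RFI, 2.08 ± 0.71 in LF high RFI, 1.71 ± 0.45 in HF low RFI and 1.70 ± 0.53 in HF high RFI pigs (SD, n = 12), so the groups ordered by diet, and the lines differed by 0.03 (SE 0.15, adjusted p = 0.983). The fall was 0.51 in the first scan date and 0.28 in the second. This call lay close to the cut-off, and 6 of 16 alternative settings kept it. It was lost with 75th percentile scaling (adjusted p = 0.0977), quantile normalization (0.0932), normexp background correction (0.0814) and the methods' analysis of variance (0.0828), among others. Over the 16 settings the difference lay between -0.52 and -0.35, with adjusted p from 0.0109 to 0.228.

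*MLX*, which encodes the DNA-binding partner of ChREBP, has 2 probes, whose values differed and of which O4449 may not report its mRNA, since the strand of that probe could not be checked. At A_72_P394458, well above background on all 48 arrays, the diets differed by 0.00 (95% interval -0.21 to 0.22). At O4449 the level fell by 0.30 under the HF diet (SE 0.10, adjusted p = 0.0559), from a median of -3.74 in LF pigs to -3.99 in HF pigs, and 19 of 24 HF pigs lay below the LF median. O4449 is a dim probe, well above background on 11 and 8 of 12 arrays in HF low and high RFI pigs and on 11 and 12 in LF low and high RFI pigs. Across pigs the 2 probes did not rise and fall together (r = -0.19). The level at O4449 followed that of GC-rich probes at r = 0.57. The call was kept under 8 of 14 alternative settings, and with another background correction (normexp) the difference was -0.12 and the call was lost.

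*USF1* showed the same unevenness among its 5 probes. The 2 identical probes gave nearly the same result: at A_72_P672323 HF pigs ran from -1.11 to -0.15 with a median of -0.56, and LF pigs from -0.87 to 0.22 with a median of -0.38. The level fell by 0.23 (SE 0.08, adjusted p = 0.0487), and at O9582 by 0.22 (SE 0.08, adjusted p = 0.0633). Across arrays these duplicates correlated at r = 0.94, and the SD of their difference was 0.10. The other 3 probes were not called, with -0.18 at A_72_P108086 (adjusted p = 0.22), -0.05 at A_72_P506973 and -0.03 at A_72_P653666. All 5 correlated with the level of GC-rich probes, at r from 0.41 to 0.78, and with that level as a covariate neither identical probe was called (-0.16 and -0.16). Both also lost their call with 75th percentile scaling, the authors' median signals, the median signal of the array as a covariate and array weights. Over 16 alternative settings the difference lay between -0.25 and -0.11 at A_72_P672323 and between -0.23 and -0.10 at O9582.

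*USF2* differed little between diets, and neither probe was called. At O12883 HF pigs ran from 5.18 to 5.55 with a median of 5.42, and LF pigs from 5.19 to 5.70 with a median of 5.52. Here 21 of 24 HF pigs lay below the LF median and 10 LF pigs lay above every HF pig. The difference was -0.11 (SE 0.04, adjusted p = 0.0551), and at the identical A_72_P011156 it was -0.10 (SE 0.04, adjusted p = 0.0795). The fold change of 1.08 and 1.07 was under the cut-off at both, and the raw p of A_72_P011156 was 0.0115. Within the first scan date the differences were -0.15 at both probes, with O12883 called (adjusted p = 0.0602), and within the second they were -0.07 and -0.06 at O12883 and A_72_P011156.

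*MID1IP1* differed most between diets among the probes called in the main fit. Levels ran from -4.62 to -1.60 with a median of -3.32 in HF pigs and from -3.97 to -1.45 with a median of -2.88 in LF pigs. In all 20 of 24 HF pigs lay below the LF median, with 4 HF pigs below every LF pig. The level fell by 0.53 (SE 0.17, a 1.44-fold difference, adjusted p = 0.037). The fall was 0.69 in the first scan date and 0.37 in the second, neither called alone. The probe is dim, well above background on 10 of 12 arrays in each HF group and on all LF arrays. With normexp background the difference was -0.22. The call was kept under 11 of 14 alternative settings and lost with array position as a block (-0.50, adjusted p = 0.114), with the median signal of the array as a covariate (-0.47, adjusted p = 0.0643) and with the level of GC-rich probes as a covariate (-0.44, adjusted p = 0.0535). The probe followed that GC-rich level at r = 0.44. With that level as a covariate *MLXIPL* differed more than *MID1IP1* (-0.48, limma adjusted p = 0.0125, called).

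*OGT* was the one regulator with called probes higher under the HF diet, at 3 of its 6 probes, and with normexp background none of the 3 was called (0.12, 0.13 and 0.16 at A_72_P365328, A_72_P506730 and O11764). At A_72_P506730 HF pigs ran from -0.42 to 0.23 with a median of -0.21, and LF pigs from -0.64 to -0.05 with a median of -0.37. The ranges overlapped, but 23 of 24 HF pigs lay above the LF median, and 10 LF pigs lay below every HF pig. The level rose by 0.15 (SE 0.05, a 1.11-fold difference, adjusted p = 0.0297), and at the overlapping A_72_P365328 by 0.16 (SE 0.05, adjusted p = 0.0363). The probe without a symbol that shares 29 bases with both differed by 0.10 (SE 0.06, adjusted p = 0.236).

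At the third called *OGT* probe, O11764, HF pigs ran from -2.55 to -0.54 with a median of -2.14 and LF pigs from -2.71 to -1.96 with a median of -2.32. One pig, HF high RFI replicate 10, stood far above the rest at -0.54. The level rose by 0.30 (SE 0.09, adjusted p = 0.0318), and by 0.23 without that pig (adjusted p = 0.0271). The other 3 probes were not called: A_72_P119996 differed by 0.06 (adjusted p = 0.70), and the identical A_72_P232207 and RefSeq probe by 0.06 each (adjusted p = 0.523 and 0.556). The *OGT* probes did not vary as 1 across pigs either. The identical pair correlated at r = 0.96 with each other but between -0.29 and 0.04 with the other 4 probes, and at r = -0.61 and -0.60 with the level of GC-rich probes. The mean of the 6 probes differed by 0.13 (SE 0.04, adjusted p = 0.0178), with a fold change under the cut-off.

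**Figure D3:**
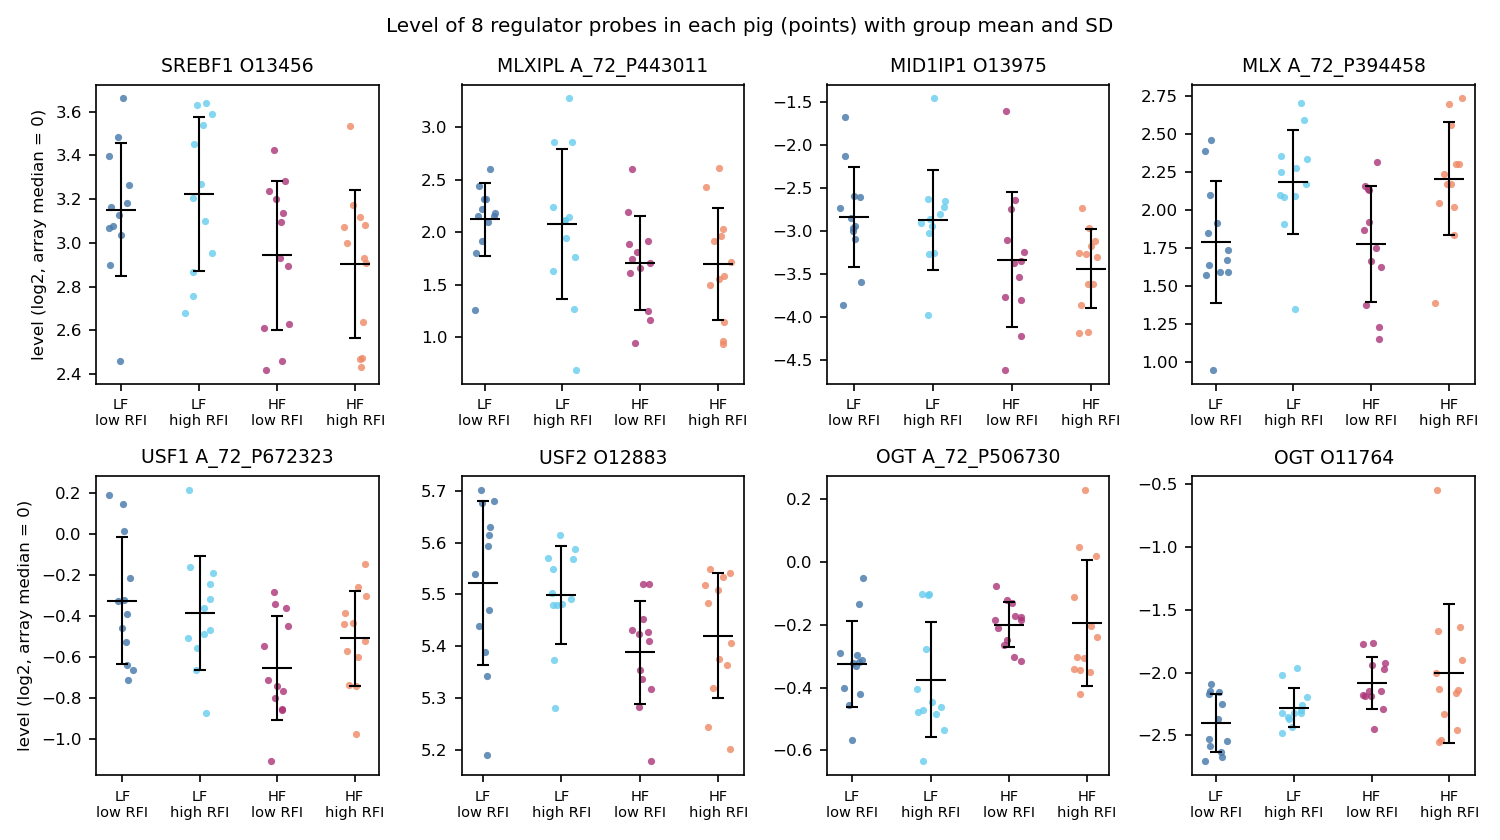
Level of 8 probes in each pig (points; log2, 0 is the array median) by diet and line, with the group mean and SD in black (n = 12). *MLXIPL*, *MID1IP1* and *SREBF1* O13456 lie lower in both HF groups, both *OGT* probes lie higher, and *MLX* A_72_P394458 lies lower in both low RFI groups.

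The line contrast asked whether selection for RFI altered these regulators, and it called 1 of the 21 probes, where 1.37% of all probes were called and 0.557% were lower in low RFI pigs. *MLX* A_72_P394458 ran from 0.95 to 2.46 with a median of 1.74 in 24 low RFI pigs and from 1.35 to 2.73 with a median of 2.20 in 24 high RFI pigs. In 21 of 24 low RFI pigs the level lay below the high RFI median, and 5 high RFI pigs lay above every low RFI pig. It was lower by 0.41 in low RFI pigs (95% interval -0.62 to -0.20, SE 0.11, a 1.33-fold difference, limma adjusted p = 0.0418). The 2 diets gave alike levels within each line, with means of 1.78 ± 0.38 and 1.79 ± 0.40 in HF and LF low RFI pigs and of 2.20 ± 0.37 and 2.18 ± 0.34 in HF and LF high RFI pigs (SD, n = 12). The difference was -0.39 within the first scan date and -0.43 within the second, neither called alone. The call was also lost without a filter on dim probes and with array position as a block. The mean of both *MLX* probes differed by -0.18 (SE 0.07, limma adjusted p = 0.234, not called). At O4449, the probe of unchecked strand, the line difference was not called (0.05, SE 0.10, 95% interval -0.15 to 0.26, adjusted p = 0.947). The 20 other probes had line differences between -0.10 and 0.17, with adjusted p from 0.551 to 0.997.

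No probe had a called interaction of diet and line in limma (0% of all 44356 probes were called), and no interaction among the 21 probes had a raw p under 0.05. Over the array 462 interactions had a raw p under 0.05. The interaction values lay between -0.20 and 0.25. Within low RFI pigs alone, 0 of 21 probes were called by diet, 6 at a raw p under 0.05, beside 3.04% of all probes called. Within high RFI pigs alone 0 were called, 7 at a raw p under 0.05, beside 1.66%. The diet difference of *MLXIPL* was -0.42 in the low and -0.38 in the high RFI line, and that of *MID1IP1* was -0.50 and -0.56. Other probes were further apart. The *SREBF1* RefSeq probe differed by -0.06 in the low and -0.32 in the high RFI line (interaction 0.25, SE 0.15, raw limma p = 0.0966), and *USF1* A_72_P672323 by -0.33 and -0.13 (interaction -0.20, SE 0.16, raw limma p = 0.199).

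The genes around the regulators were taken from lists, with 1 probe per gene, the brightest kept one. At this level 12.7% of 10404 genes were called by diet, 3.22% higher and 9.47% lower, with a median difference of -0.04. Fatty acid synthesis genes stood lower under the HF diet: 4 of 11 were called, all lower, and all 11 had a difference below 0, with a median of -0.31. *ME1*, the malic enzyme that supplies NADPH, fell by 0.71 (SE 0.19, adjusted p = 0.012), and *ACACA*, acetyl-CoA carboxylase, by 0.62 (SE 0.20, adjusted p = 0.0392). *ACLY*, ATP citrate lyase, fell by 0.56 (adjusted p = 0.0269) and *ACSS2*, an acetyl-CoA synthetase, by 0.51 (adjusted p = 0.066). With array position as a block *ACACA*, *ACLY* and *ACSS2* lost their call, and *ACSS2* lost it in 6 of 16 alternatives, 75th percentile scaling and leaving out HF high RFI replicate 10 among them. *FASN*, fatty acid synthase, differed by -0.15 (SE 0.07, adjusted p = 0.175). All tested genes of this list stayed below 0 under each of 3 other scalings or signals and in the authors' median-signal table, where 10 of them had a value.

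Of the carbohydrate response targets, 1 of 10 tested genes was called. *PNPLA3*, a lipid droplet protein, fell by 0.94 (SE 0.25, a 1.92-fold difference, adjusted p = 0.011). The others did not pass, among them *TXNIP* with 0.01 (SE 0.10) and *SLC2A4*, the insulin-responsive glucose transporter, with -0.36 (SE 0.17, adjusted p = 0.169). The list median was -0.12.

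Genes around SREBP processing had 4 of 13 tested members called, all lower. *INSIG2*, which holds SREBP in the endoplasmic reticulum, fell by 0.23 (adjusted p = 0.00889), and *FBXW7*, part of the ligase that marks nuclear SREBP for breakdown, by 0.14 (adjusted p = 0.0716). *FBXW7* kept its call in 8 of 16 alternatives, not with 75th percentile scaling, quantile normalization or normexp background. The list median was -0.05, and 0.00 with quantile normalization.

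Among the E-box binding partners of the MLX and USF type 0 of 10 tested genes were called by limma, and 1 of the 10 had a raw p under 0.05. The list median was -0.07. Their differences ran from -0.27 for *BHLHE40* to 0.11 for *MXD1*. In the O-GlcNAc and hexosamine list 1 of 9 was called: *OGA*, the enzyme that removes the sugar OGT attaches, rose by 0.28 (SE 0.05, adjusted p = 0.000311). *GFPT1*, the entry enzyme of the hexosamine pathway, differed by -0.10 (SE 0.07, adjusted p = 0.389). The list median was -0.04, and 0.00 with 75th percentile scaling. Of the insulin, LXR and thyroid hormone inputs 3 of 14 were called. *IRS1*, an insulin receptor substrate, rose by 0.35 (SE 0.09, adjusted p = 0.00524), *PRKAA1*, a catalytic subunit of AMP-activated kinase, fell by 0.16 (adjusted p = 0.0522) and *CEBPA*, an adipocyte transcription factor, fell by 0.14 (adjusted p = 0.0581). The split of 1 higher and 2 lower depended on the scaling: 75th percentile scaling called 3 higher and 0 lower, with neither *PRKAA1* nor *CEBPA* called and a list median of 0.02 in place of -0.02, and quantile normalization called 2 higher and 1 lower. The line contrast called 0 of the 67 tested genes of these 6 lists, beside 1.32% of all genes.

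**Figure D4:**
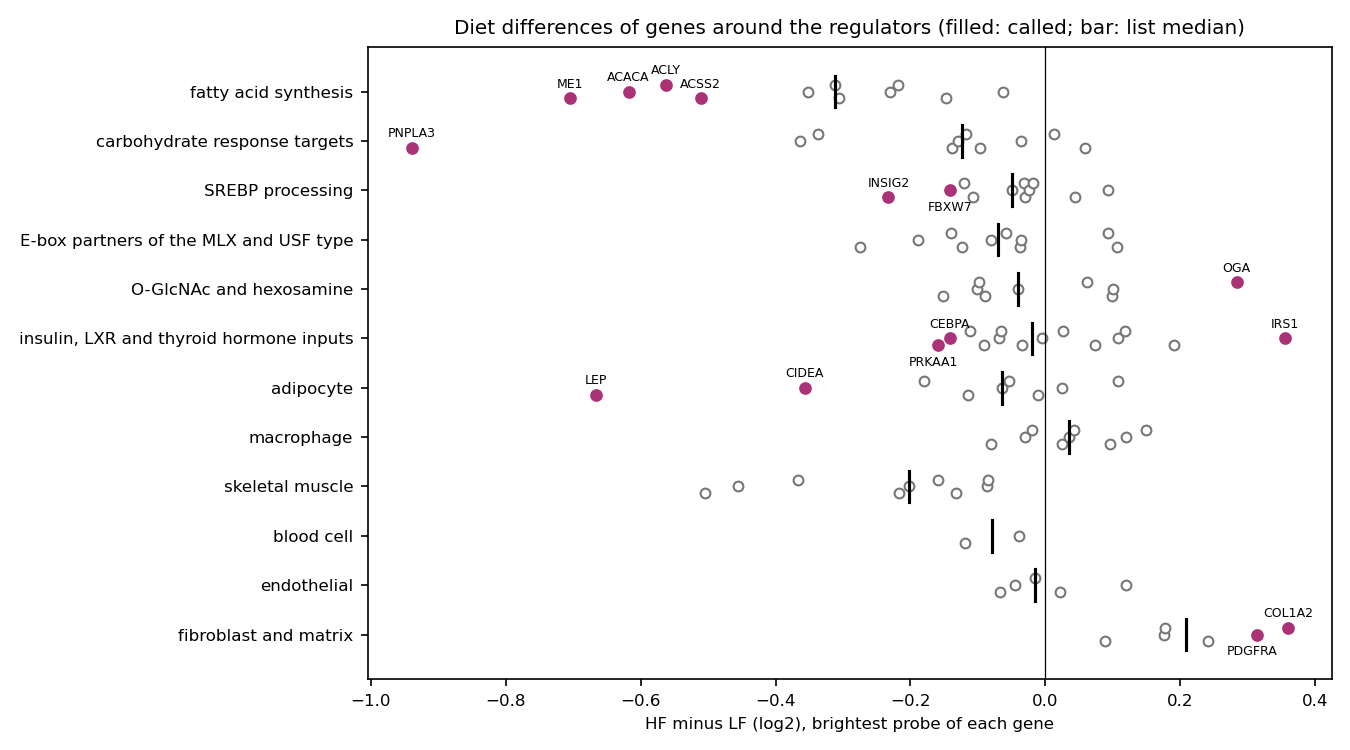
Difference between diets (HF minus LF, log2) of the genes of the 6 lists around the regulators and the 6 marker lists, each at its brightest probe, except 2 genes of the SREBP processing list that are not shown. Filled points with names passed the cut-offs, and the black bar is the median of all tested genes of the list, which is lowest for fatty acid synthesis (-0.31).

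Cell type markers were read beside these results. Adipocyte markers had 2 of 9 tested genes called, *LEP* (leptin) lower by 0.67 and *CIDEA* (a lipid droplet protein) lower by 0.36, and the mean level of the list ran from 7.13 to 7.77 in HF pigs and from 7.17 to 7.90 in LF pigs. Fibroblast and matrix markers had 2 of 6 called, *COL1A2* higher by 0.36 and *PDGFRA* higher by 0.31, and all 6 lay above 0 with a median of 0.21. Quantile normalization, normexp background correction, the median signal without background subtraction and the level of GC-rich probes as a covariate each called 1 of these 6, and 75th percentile scaling called 2. Their mean level ran from 5.70 to 6.65 in HF and from 5.23 to 6.96 in LF pigs. None of 9 macrophage, 9 skeletal muscle, 2 blood cell and 5 endothelial markers was called, and the 9 muscle markers all lay below 0 with a median of -0.20. The part of these markers in the regulators' differences was not tested.

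Correlations across the 48 pigs were computed for 28 relations, between the brightest probes of the 7 genes and between each of them and the mean standardized level of the 11 fatty acid synthesis genes. Of these, 10 had an adjusted p under 0.05 (permutation tests with 100000 resamples, two-sided, adjusted over the 28). The shuffles ignored groups and slides, so the p-values here and below treat all arrays as interchangeable, although diets and slides differed. No share over all genes is given beside these relations. *USF2* had the closest relation with the fatty acid synthesis genes (r = 0.68, rho = 0.59, permutation p = 1e-05, the smallest the resamples can give, adjusted p = 0.00028). It was r = 0.63 after subtracting the group means, 0.55 and 0.76 within the 2 scan dates (adjusted p = 0.0501 and 0.00084) and 0.61 without the 2 pigs farthest from the *USF2* median. With the level of GC-rich probes removed it was 0.68.

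*MLXIPL* (r = 0.39, rho = 0.44, permutation p = 0.00618 and 0.00192, adjusted p = 0.0277 and 0.00896) and *MID1IP1* (r = 0.37, rho = 0.46, permutation p = 0.0113 and 0.00117, adjusted p = 0.0396 and 0.00655) also rose with the fatty acid synthesis genes. Within groups these fell to r = 0.28 and 0.23, neither with an adjusted p under 0.05. Without the 2 pigs farthest from the median of each, r was 0.33 for *MLXIPL* (adjusted p = 0.073) and 0.52 for *MID1IP1*. Within scan dates *MLXIPL* gave 0.49 and 0.29 and *MID1IP1* 0.48 and 0.45, none with an adjusted p under 0.05. With the level of GC-rich probes removed r was 0.46 for *MLXIPL* and 0.34 for *MID1IP1*. *MLXIPL* and *MID1IP1* correlated with each other at r = 0.35 (rho = 0.42, permutation p = 0.0153 and 0.00294, adjusted p = 0.0457 and 0.0118), at 0.23 after subtracting the group means (adjusted p = 0.241), and at 0.56 with the level of GC-rich probes removed. Within the scan dates r was 0.58 and 0.28, the latter with an adjusted p of 0.348.

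The brightest probe did not stand for all probes of a gene. For *SREBF1* A_72_P326973, the brightest, r with the fatty acid synthesis genes was 0.14 (rho = 0.15, permutation p = 0.328 and 0.326, adjusted p = 0.538 and 0.531), and 0.39 and 0.36 within the scan dates. Each of the 21 probes was therefore also set against these genes, a step chosen after seeing the data, and 10 had an adjusted p under 0.05 (permutation tests, adjusted over the 21). The count was 6 after subtracting the group means, and 8 and 6 within the scan dates. No share over all kept probes is given beside these counts, so they do not set the regulators apart from other genes. The *SREBF1* RefSeq probe rose with them (r = 0.63, rho = 0.63, both permutation p = 1e-05, the smallest possible, adjusted p = 4.2e-05 and 0.000105), and so did O13456 (r = 0.53, rho = 0.49, permutation p = 0.00017 and 0.00049, adjusted p = 0.000595 and 0.00171). Their r was 0.56 and 0.43 after subtracting the group means and 0.58 and 0.48 without the 2 pigs farthest from the median. Within the first scan date it was 0.68 and 0.57 and within the second 0.59 and 0.47, where O13456 had an adjusted p of 0.0599. With the level of GC-rich probes removed it was 0.65 and 0.52.

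The overlapping *OGT* probes ran against the fatty acid synthesis genes, A_72_P365328 at r = -0.61 (rho = -0.61, permutation p = 1e-05 and 2e-05) and A_72_P506730 at r = -0.60 (rho = -0.62, permutation p = 1e-05 and 2e-05), with adjusted p of 4.2e-05 for r and 0.000105 for rho at both. After subtracting the group means r was -0.51 and -0.50. Within the first scan date it was -0.58 and -0.39, the latter with an adjusted p of 0.113, and within the second -0.61 and -0.71. Without the 2 pigs farthest from the median it was -0.63 and -0.56. The *OGT* RefSeq probe, the brightest of the gene, gave r = -0.11 (rho = -0.10, permutation p = 0.477 and 0.507, adjusted p = 0.586 and 0.665).

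**Figure D5:**
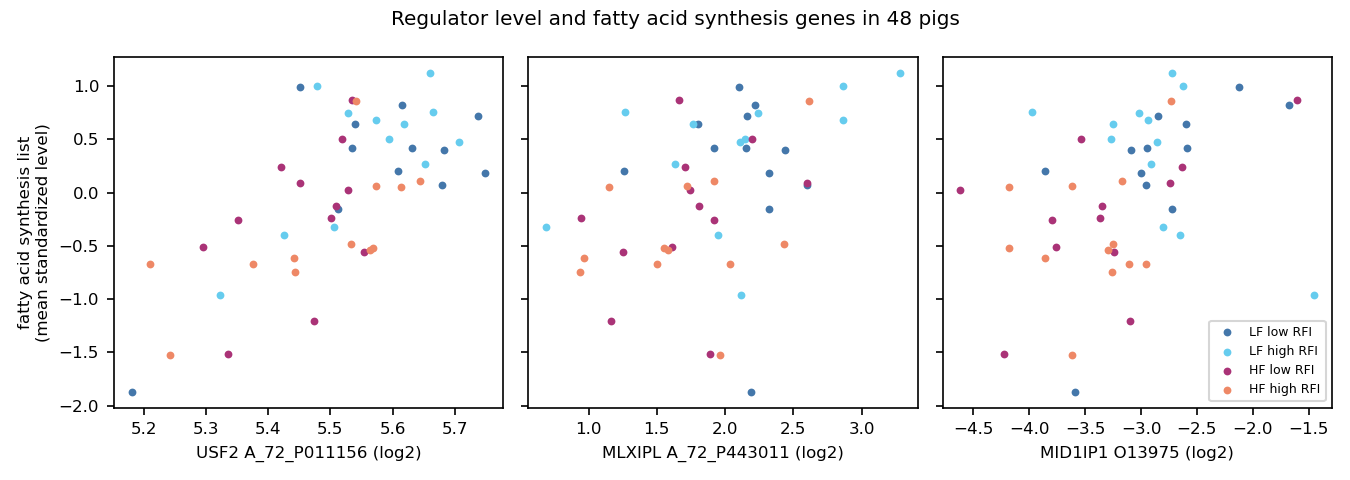
Mean standardized level of the 11 fatty acid synthesis genes (y axis) against the level of *USF2*, *MLXIPL* and *MID1IP1* (x axes, log2) in 48 pigs coloured by group. The relation is closest for *USF2* (r = 0.68) and looser for *MLXIPL* (r = 0.39) and *MID1IP1* (r = 0.37).

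The other 6 relations with an adjusted p under 0.05 joined *SREBF1* A_72_P326973 with *USF1* (r = 0.53), *MID1IP1* (0.48), *OGT* (-0.49) and *MLX* (-0.35), and *OGT* with *USF1* (-0.44) and *MLXIPL* (0.38), with adjusted permutation p from 0.00154 to 0.0457. Spearman's rho lay between -0.54 and 0.47, with adjusted permutation p from 0.00182 to 0.0722. With the level of GC-rich probes removed they were between -0.14 and 0.26, none with an adjusted p under 0.05.

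The genes whose pattern over the 48 arrays was most like each regulator, after subtracting the group means, were named by the highest r among 10404 genes. For *SREBF1* A_72_P326973 these were *NRTN*, *HGS* and *CYP2S1* (r = 0.98, 0.97 and 0.97). For *MLXIPL* they were *ARHGAP22*, *SNN* and *NPC1* (0.82, 0.80 and 0.75), for *MLX* A_72_P394458 *NT5C2*, *TOPBP1* and *INPP5B* (0.76, 0.75 and 0.74), and for *USF1* O9582 *ZNF746* and *SLC36A4* (0.77 and 0.76). For *USF2* A_72_P011156 they were *SF3B5*, *NAPA* and *TTLL1* (0.77, 0.77 and 0.75), for the *OGT* RefSeq probe *NFYA*, *AP5M1* and *DDX17* (0.81, 0.80 and 0.80), and for *MID1IP1* *IER5*, *CCDC86* and *NR0B1* (0.69, 0.68 and 0.67). These likenesses are descriptions over arrays that share slides, with no test. Within groups *SREBF1* A_72_P326973 followed the level of GC-rich probes at r = 0.91, *USF1* O9582 at 0.61, the *OGT* RefSeq probe at -0.59 and *USF2* A_72_P011156 at -0.03. The part of that level in the likenesses was not tested. In the first and second scan date r was 0.48 and 0.88 for *USF2* with *SF3B5*, 0.48 and 0.83 with *TTLL1*, and 0.96 and 0.95 for *SREBF1* with *NRTN*.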

How the data were processed

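RNA of subcutaneous adipose tissue of 48 pigs had been labelled with 1 dye and hybridized to a custom porcine array, 8 arrays per slide. The deposited scanner files give spot intensity on a linear scale, and the authors' processed signal is background-subtracted by the scanner software. A second deposited table holds the authors' log2 values, the median signal minus the array median over 38987 probes (matched here within 4.87e-09), used as an alternative. R 2.10.0 is named in the submitters' processing notes. Control spots were left out, 227 flagged spots were set to missing, and no spot was saturated.

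Probes were named by accession, gene number or gene name through RefSeq tables of Sscrofa11.1, and 573 through a record in the probe name. No genome position is given, since no genome of the array's build was used here. Members and lists were chosen with earlier results of these data known. Named genes are all members, up to 4 called genes per list by diet and 2 by line, and the 3 genes most like each member. A few genes that this rule would name are not reported here. *FASN*, *TXNIP*, *SLC2A4*, *GFPT1*, *BHLHE40*, *MXD1* and the cell type markers were named after their values were seen. Groups and replicate numbers came from sample titles.

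Values were log2 processed signal minus the array median over 44356 kept probes, fitted with limma 3.58.1 (eBayes with trend) in R 4.3.3 in 1 model of the 4 groups, and the code was tested on simulated data. The study's two-way analysis of variance, other scalings, background corrections, filters, blocks and thresholds were alternatives. Slides (6) and scan dates (2) each held all groups equally. Permutation tests used Python 3.11.15 and numpy 2.4.6.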

Additional observations from a re-analysis of the deposited data

How the results depend on the processing

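The 9 regulator probes called by diet became 4 with 75th percentile scaling, 4 with normexp background, 4 in the authors' table of median signals, 5 among probes well above background on all 48 arrays, 3 with array position as a block, 4 with the array's median signal as a covariate, 5 with an adjusted p under 0.05, 5 with the level of GC-rich probes as a covariate, and 2 and 0 in the first and second scan date alone. With gene means 3 of 7 genes were called. Other settings gave 7 to 10. Over all probes the 5790 diet calls became 5737 with 75th percentile scaling, 4765 with normexp background and 4910 of 38987 in the authors' table. They became 5111 of 36153 probes well above background on all arrays, 4285 with array position and 4732 with an adjusted p under 0.05. The median-signal and GC-rich covariates gave 7359 and 7307, and the scan dates alone 2407 and 1230. Gene means gave 1269 of 10404, and the other settings 5393 to 7801. The *OGT* probes A_72_P506730, A_72_P365328 and O11764 held their call in 15, 14 and 14 of 16 alternatives, *MID1IP1* in 11 of 14, *USF1* A_72_P672323 and O9582 in 11 and 8 of 16, *SREBF1* O13456 in 9 of 16, *MLX* O4449 in 8 of 14 and *MLXIPL* in 6 of 16. Leaving out HF high RFI replicate 10 and the GC-rich covariate were chosen after seeing the data. The line call of *MLX* A_72_P394458 held in 14 of 16 alternatives (-0.47 to -0.38). It was lost, so that the count was 0, without a filter on dim probes, with array position as a block, in each scan date alone and with gene means. The causes were not tested.

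Uncalled diet differences changed sign at *MLX* A_72_P394458 (-0.0024 without the filter, -0.0518 with the median-signal covariate, -0.1251 in the second scan date, -0.0542 with the GC-rich covariate), at *USF1* A_72_P506973 (0.0084 with the median-signal covariate, 0.0203 in the second scan date, 0.0021 with the GC-rich covariate) and at *USF1* A_72_P653666 (0.0111 with the 75th percentile, 0.0851 with the median-signal covariate, 0.0532 with the GC-rich covariate).

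Within low RFI pigs the 0 diet calls became 2 with slide or replicate block, 1 with scan date as a block, 1 with the median-signal covariate, 4 with array weights, 1 without HF high RFI replicate 10 and 1 with the GC-rich covariate. Within high RFI pigs they became 2 with the median-signal covariate, 1 with the replicate block, 4 with array weights and 2 with the GC-rich covariate. Over all 44356 probes, the 1349 calls in low RFI pigs became 2373 with slide, 2853 with replicate and 1860 with scan date as a block. They became 3057 with the median-signal covariate, 4155 with array weights, 1294 without that replicate and 2830 with the GC-rich covariate. In high RFI pigs 737 became 1882 with the median-signal covariate, 1906 with the replicate block, 2301 with array weights and 2616 with the GC-rich covariate. Array weights gave 1 line call in the lists, against 0. The 10 correlations with an adjusted p under 0.05 became 2 and 3 in the first and second scan date and 3 with the level of GC-rich probes removed.

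Replicate numbers are tied to slides, since each number lies on 1 slide. Arrays of different groups, after subtracting group means, correlated at a median r of 0.16 with the same number (lowest -0.19, 48 of 72 pairs over 0.1), 0.08 on the same slide with another number and -0.03 on other slides, and 17 of 48 arrays correlated best with their own number. The titles do not say that a number marks a pair, and the main fit did not take the samples as pairs. A replicate block called 7124 of all 44356 probes by diet in place of 5790, 1140 by line in place of 606, and 0 interactions. With the replicate block 10 regulator probes were called by diet (*SREBF1* A_72_P223967 and A_72_P326973 gained and *MLXIPL* lost the call), 1 by line and 0 for the interaction, and 13 list genes by diet and 0 by line.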
